A study of Mus musculus with 6 samples.

Results

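The 35 genes described here encode enzymes of nucleotide and folate one-carbon metabolism. They were taken by gene symbol from the 55487 gene rows of the deposited count table. That rule used no measured value, but the genes were chosen with earlier results of these data known. All 35 passed the filter on low counts that left 14478 genes for testing. They were divided by role into 9 genes of deoxynucleotide supply and breakdown, 5 of pyrimidine synthesis, 12 of purine synthesis, 4 of base salvage and nucleoside diphosphate kinase activity, and 5 of folate one-carbon metabolism.

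The study compared M2-polarized mouse macrophages that had received polymer nanoparticles with macrophages that had received buffer, by RNA sequencing of polyadenylated RNA. The cells came from the bone marrow of wild-type female BALB/c mice aged 6 to 12 weeks. Marrow was cultured for 8 days with 20% conditioned medium of L929 cells, a mouse fibroblast line that secretes the growth factor M-CSF. IL-4 and IL-13, the cytokines that drive the M2 state, were added at 10 ng/mL each for 24 h. The 3 NP libraries then came from cells given poly(lactide-co-glycolide) nanoparticles at 200 µg/mL for 24 h (the treatment label, PEMA, has no explanation in the labels), and the 3 PBS libraries from cells given phosphate-buffered saline. Both groups were polarized, so that no unpolarized culture serves as a reference, and the cells are a culture model grown from pooled or single marrows that the labels do not distinguish. Since the labels do not state separate cultures or animals, each p-value measures only the spread between these libraries, which may be technical.

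Deoxynucleotides are the building blocks of DNA. Ribonucleotide reductase makes them from ribonucleotides, thymidylate synthase adds the methyl group that turns dUMP into dTMP, and salvage kinases recover nucleosides from outside the cell or from degraded DNA. Purine and pyrimidine rings are built de novo in separate pathways, and folate enzymes supply one-carbon units, largely taken from serine, to purine and thymidylate synthesis. In macrophages, which divide in culture under M-CSF, these pathways serve DNA replication as well as RNA synthesis and energy metabolism in cells that no longer divide.

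Library totals ran from 41974957 to 69450411 counts, and all NP totals exceeded all PBS totals. All 12 macrophage markers examined, among them Adgre1, Csf1r, Mrc1 and Arg1, were above 1 CPM in all 6 libraries. CPM are counts scaled to a common total. They used library totals alone in this paragraph, and TMM factors as well for gene levels further below. The summed level of the 12 markers was 13711 to 13912 CPM with PBS and 10270 to 11277 CPM with NP. Lyz2 carried most of it, with means of 8330 CPM with PBS and 6738 CPM with NP (these means with TMM factors). Of the 12, 8 were called lower and 1 higher, against 21.4% and 19.8% of all genes tested. Summed levels of 7 fibroblast markers were 2.24 to 3.38 CPM, T cell and neutrophil markers summed to at most 3.95 and 1.12 CPM, and B cell, erythroid and mast cell markers to at most 0.858 CPM. The part of these differences in the results was not tested. Itgax, which dendritic cells share with some macrophages, carried most of a dendritic list of 6 genes at 814 to 915 CPM. Besides it, only Zbtb46 of that list was above 1 CPM in all 6 libraries. In the same list Ccr7 was called higher, on small counts: 0, 0 and 1 with PBS and 27, 25 and 33 with NP (log2 fold change 4.98, limma voom adjusted p = 5.33e-05). Olfactory and vomeronasal receptor genes, which macrophages are not expected to transcribe, summed to 138 CPM in PBS 2 and 153 CPM in PBS 3 against 9.70 to 12.5 CPM in the other 4 libraries. Of the T and B cell markers, Cd3e (55 and 34 counts), Cd3g (12 and 24) and Pax5 (25 and 23) were also raised in PBS 2 and PBS 3. Elsewhere these 3 had 0 to 3 counts, while Cd4 and Lck were spread over all 6 libraries. Results are therefore also given against PBS 1 alone, a setting chosen after the data were seen, in which the lone PBS library is assumed to vary as the NP libraries do. On the first principal component, which held 79.4% of the variance, NP 2 lay nearest to the PBS libraries.

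With limma voom and Benjamini-Hochberg adjustment over all 14478 genes, 16 of the 35 genes were lower in NP (adjusted p under 0.05) and 5 were higher, while 14 were not called. Of all genes tested, 41.2% were called, 21.4% as lower and 19.8% as higher. The counts given below for roles and related lists stand against these same shares. The median log2 fold change of the 35 genes was -0.10, against -0.00 over all genes. None of the 35 changed by 2-fold or more. In 17 of them all 3 NP libraries lay below all 3 PBS libraries, and in 7 all lay above, against 26.8% and 26.5% of all genes. By role, 7 of 9 deoxynucleotide genes fell (median -0.71) and 4 of 5 folate genes fell (median -0.44). In pyrimidine synthesis, 1 of 5 genes fell and none rose (median -0.01), purine synthesis had 3 of 12 lower and 3 higher (median 0.04), and the 4 salvage and diphosphate kinase genes had 1 lower and 1 higher (median 0.02). In bulk RNA, fewer cells that express a gene and less of its RNA per cell cannot be told apart.

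Across 16 other settings of scaling, filter, test and libraries, 14 of the 21 calls held in every one: 12 of the lower genes (Tyms, Tk1, Rrm1, Rrm2, Dck, Prps2, Paics, Impdh2, Hprt, Shmt1, Shmt2 and Mthfd1l) and 2 of the higher genes (Impdh1 and Aprt). Against PBS 1 alone, those same 14 were the genes called, 12 lower and 2 higher. With library totals in place of TMM factors, 19 were lower and 3 higher.

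**Figure D1:**
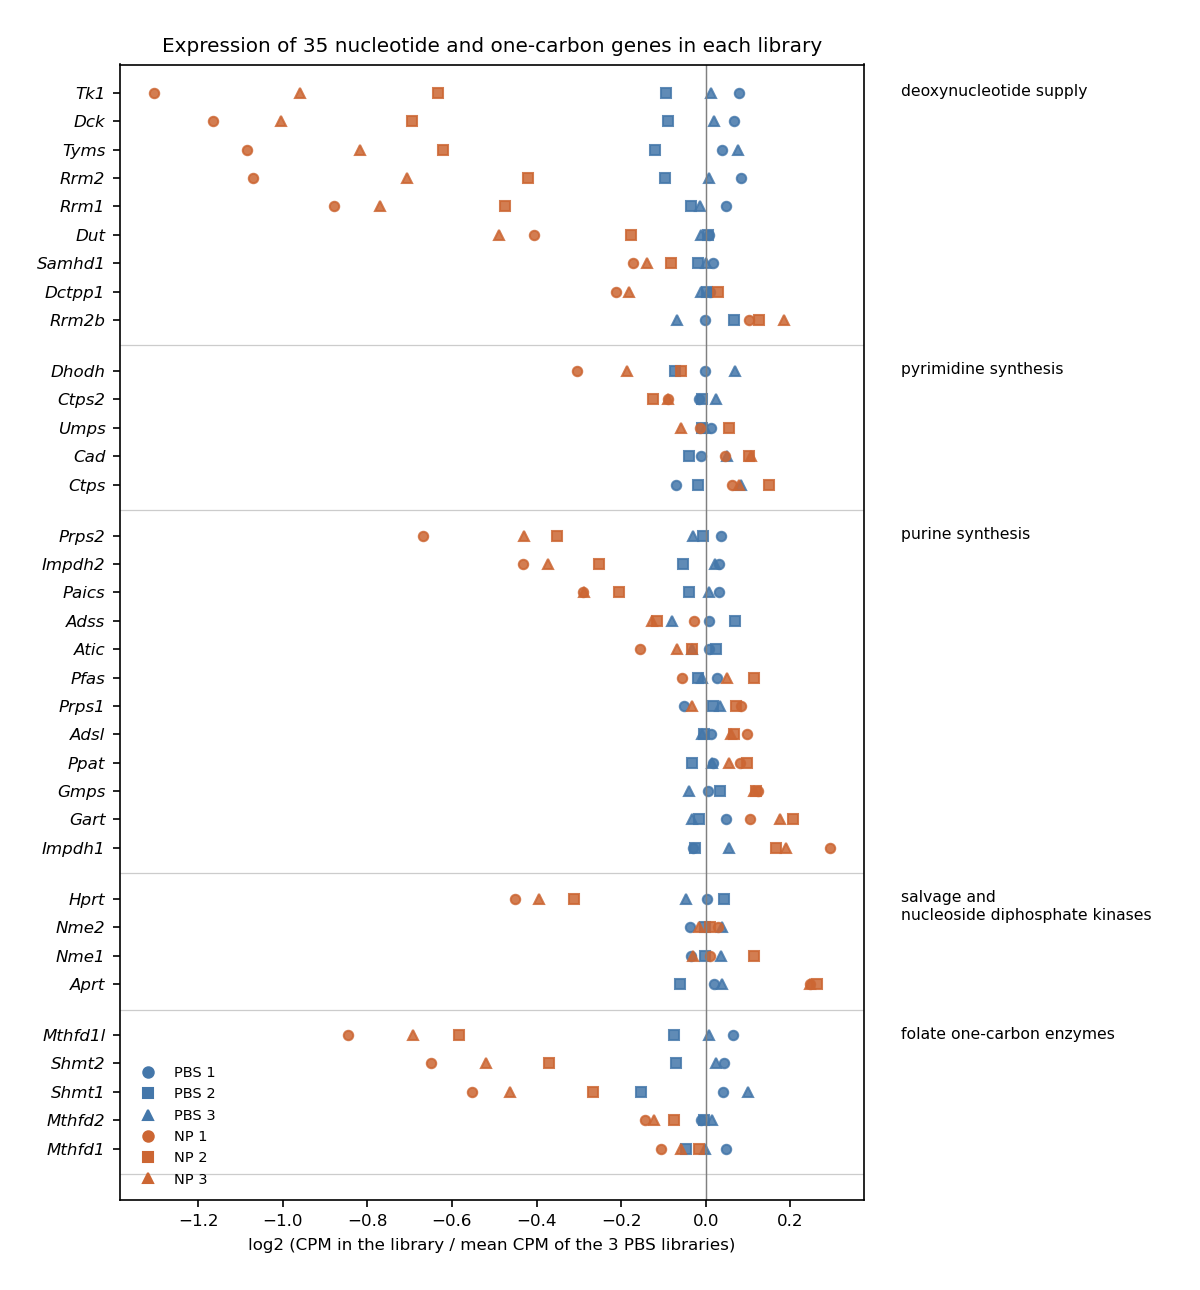
Level of each of the 35 genes in each library, as log2 of its CPM over the mean CPM of the 3 PBS libraries, grouped by role (points are single libraries, circles, squares and triangles mark replicates 1, 2 and 3). Tk1, Dck and Tyms lie farthest to the left in NP, with NP 2 the least shifted of the NP libraries, while the genes of pyrimidine synthesis lie closer to 0.

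The sequences just upstream of the start sites are shown for the 5 deoxynucleotide genes with the largest falls. Of these, 3 were taken by rule, and the reductase genes Rrm1 and Rrm2 were added after their values were seen. All 5 were picked by their fold changes, so their common fall follows from the choice. The sequences are RefSeq promoters on GRCm38.p6, each the 250 bases before the start, shortened where the GENCODE M21 annotation places a transcribed exon. Capitals mark matches, on either strand, to 4 motifs: the E2F-type sites TTTCCCGC or TTTGGCGC, the E-box CACGTG, the CCAAT box CCAAT, and the ATF4-type composite site TGATGNAAN. The windows are Tk1 at chr11:117826093-117826264 (minus strand), Dck at chr5:88764763-88764995 (plus), Tyms at chr5:30073626-30073875 (minus), Rrm2 at chr12:24708004-24708240 (plus) and Rrm1 at chr7:102441445-102441694 (plus).
Tk1: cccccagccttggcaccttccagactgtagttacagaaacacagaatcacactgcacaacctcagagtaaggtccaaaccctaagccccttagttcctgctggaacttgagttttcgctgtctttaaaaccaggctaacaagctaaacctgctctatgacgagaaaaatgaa
Dck: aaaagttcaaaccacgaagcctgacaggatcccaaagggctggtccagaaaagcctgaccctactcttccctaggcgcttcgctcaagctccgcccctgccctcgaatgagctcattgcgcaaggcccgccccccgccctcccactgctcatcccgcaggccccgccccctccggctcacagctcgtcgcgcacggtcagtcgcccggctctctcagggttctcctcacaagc
Tyms: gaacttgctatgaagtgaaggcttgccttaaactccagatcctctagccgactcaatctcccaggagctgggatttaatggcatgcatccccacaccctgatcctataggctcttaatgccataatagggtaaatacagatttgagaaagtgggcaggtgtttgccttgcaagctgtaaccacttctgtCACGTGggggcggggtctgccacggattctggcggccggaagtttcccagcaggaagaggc
Rrm2: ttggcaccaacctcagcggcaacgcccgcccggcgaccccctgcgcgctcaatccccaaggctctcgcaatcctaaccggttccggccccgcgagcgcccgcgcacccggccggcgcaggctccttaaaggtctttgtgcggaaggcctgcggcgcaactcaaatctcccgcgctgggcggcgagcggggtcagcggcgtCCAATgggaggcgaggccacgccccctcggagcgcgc
Rrm1: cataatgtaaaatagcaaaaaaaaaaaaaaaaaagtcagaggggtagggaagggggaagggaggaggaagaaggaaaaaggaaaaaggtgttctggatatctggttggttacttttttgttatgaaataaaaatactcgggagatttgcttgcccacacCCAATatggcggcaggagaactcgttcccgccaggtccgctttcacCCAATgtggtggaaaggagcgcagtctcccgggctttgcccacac
Of these 5, Rrm1 held CCAAT boxes 91 and 45 bases before the start, Rrm2 held one 50 bases before it, and Tyms held an E-box 61 bases before it. Neither Tk1 nor Dck matched any of the motifs. Over the full windows of 300 bases (250 before the start and 50 after), 32 of the 35 genes had a promoter in the table. A CCAAT box was found in 12 of those 32 genes, against 41% of all 26994 genes with a promoter (37.4% of their 32817 windows). E-boxes were found in 5 of 32, against 8.09% of all genes (7.15% of windows). E2F-type sites were found in 2 of 32, Ppat and Prps2, against 1.8% of all genes (1.56% of windows). The ATF4-type site was found in 1 of 32, Prps1, against 4.5% of all genes (3.96% of windows). A match describes letters only, and the absence of a match says only that these letters are not in the window.

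Thymidine kinase 1, the cytosolic enzyme that phosphorylates salvaged thymidine (Tk1, ENSMUSG00000025574, chromosome 11, 117815526 to 117826092 on GRCm38, minus strand), had 31.2, 27.7 and 29.8 CPM in PBS 1, 2 and 3 and 12.0, 19.1 and 15.2 CPM in NP 1, 2 and 3. Deoxycytidine kinase, which phosphorylates deoxycytidine and purine deoxynucleosides (Dck, ENSMUSG00000029366, chromosome 5, 88764996 to 88783281, plus strand), had 53.0, 47.6 and 51.4 CPM with PBS and 22.6, 31.3 and 25.2 CPM with NP. Both salvage kinases were separated between the groups with a wide gap, and in both NP 1 was the lowest library and NP 2 the highest of the NP libraries. The log2 fold change was -0.98 (SE 0.13, limma voom adjusted p = 0.000358) for Tk1 and -0.96 (SE 0.10, adjusted p = 8.52e-05) for Dck, each close to a halving. The first exon of Tk1 overlaps Afmid on the other strand, which had 115 to 204 counts per library against 814 to 1777 for Tk1. The mitochondrial counterparts, named after their values were seen, were not called: Tk2 had a log2 fold change of 0.11 (limma voom adjusted p = 0.104) and Dguok one of -0.04 (limma voom adjusted p = 0.564). Dtymk, the kinase that acts on the product of Tk1 and of thymidylate synthase, fell by 0.37 on the log2 scale (limma voom adjusted p = 0.0044).

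Thymidylate synthase (Tyms, ENSMUSG00000025747, chromosome 5, 30058202 to 30073617, minus strand) had 22.3, 20.0 and 22.9 CPM with PBS and 10.2, 14.1 and 12.3 CPM with NP. Each NP library lay below the lowest PBS library, and the log2 fold change was -0.85 (SE 0.10, limma voom adjusted p = 0.000216). Dut, the dUTPase that yields the dUMP used by thymidylate synthase and keeps uracil out of DNA, had 21.3, 21.3 and 21.1 CPM with PBS and 16.0, 18.8 and 15.1 CPM with NP. Its fall was smaller, 0.36 on the log2 scale (SE 0.07, limma voom adjusted p = 0.0037), and the call was lost against PBS 1 alone (adjusted p = 0.0683).

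Ribonucleotide reductase is built from a large subunit, Rrm1, and a small subunit, which is Rrm2 in cells that replicate DNA and Rrm2b, a p53 target, outside replication. Rrm1 (ENSMUSG00000030978, chromosome 7, 102441695 to 102469771, plus strand) had 123, 116 and 118 CPM with PBS and 64.8, 85.7 and 69.8 CPM with NP. Rrm2 (ENSMUSG00000020649, chromosome 12, 24708241 to 24714146, plus strand) had 94.3, 83.2 and 89.5 CPM with PBS and 42.4, 66.5 and 54.5 CPM with NP. For both, every NP library lay below every PBS library and NP 2 was nearest to them. The log2 fold changes were -0.71 (SE 0.08, limma voom adjusted p = 0.000209) for Rrm1 and -0.74 (SE 0.13, adjusted p = 0.0017) for Rrm2. Rrm2b (chromosome 15, 37923952 to 37961318, minus strand) had 20.5, 21.5 and 19.5 CPM with PBS and 22.0, 22.4 and 23.3 CPM with NP, a small rise of 0.14 on the log2 scale (SE 0.05, limma voom adjusted p = 0.0437). That call was lost in 8 of the 16 other settings, among them leaving out PBS 1 (adjusted p = 0.0653), PBS 3 (0.159), NP 2 (0.0554) or NP 3 (0.126). Per kilobase of exon, Rrm2 stood at 32.1 ± 2.00 CPM with PBS and 19.7 ± 4.35 with NP, and Rrm2b at 2.24 ± 0.105 and 2.47 ± 0.0728 (SD, n = 3 each). By this RNA measure, Rrm2 remained above Rrm2b in both groups, and protein was not measured.

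Samhd1, the triphosphohydrolase that breaks down deoxynucleotides and is abundant in myeloid cells, had 207, 202 and 205 CPM with PBS and 182, 194 and 186 CPM with NP. It was the deoxynucleotide gene with the most counts in every library, and the groups did not overlap. Its fall was slight, 0.13 on the log2 scale (SE 0.03, limma voom adjusted p = 0.0108), and was not called when PBS 1 (adjusted p = 0.0671) or NP 3 (adjusted p = 0.0698) was left out, against PBS 1 alone (adjusted p = 0.092) or with no low-count filter (adjusted p = 0.0507). Dctpp1, a pyrophosphatase that removes excess dCTP and its modified forms, had a log2 fold change of -0.12 (limma voom adjusted p = 0.197). NP 2 lay above all PBS libraries for Dctpp1, and without NP 2 the gene was called. Summed over the 9 genes, Samhd1 and Dctpp1 included, the level was 552 to 585 CPM with PBS and 382 to 464 CPM with NP. Of 9 further deoxynucleotide genes, 2 were lower (Dtymk, above, and Nt5c, a nucleotidase that acts on deoxynucleotides, by 0.31 on the log2 scale) and none was higher, with a median of -0.02.

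**Figure D2:**
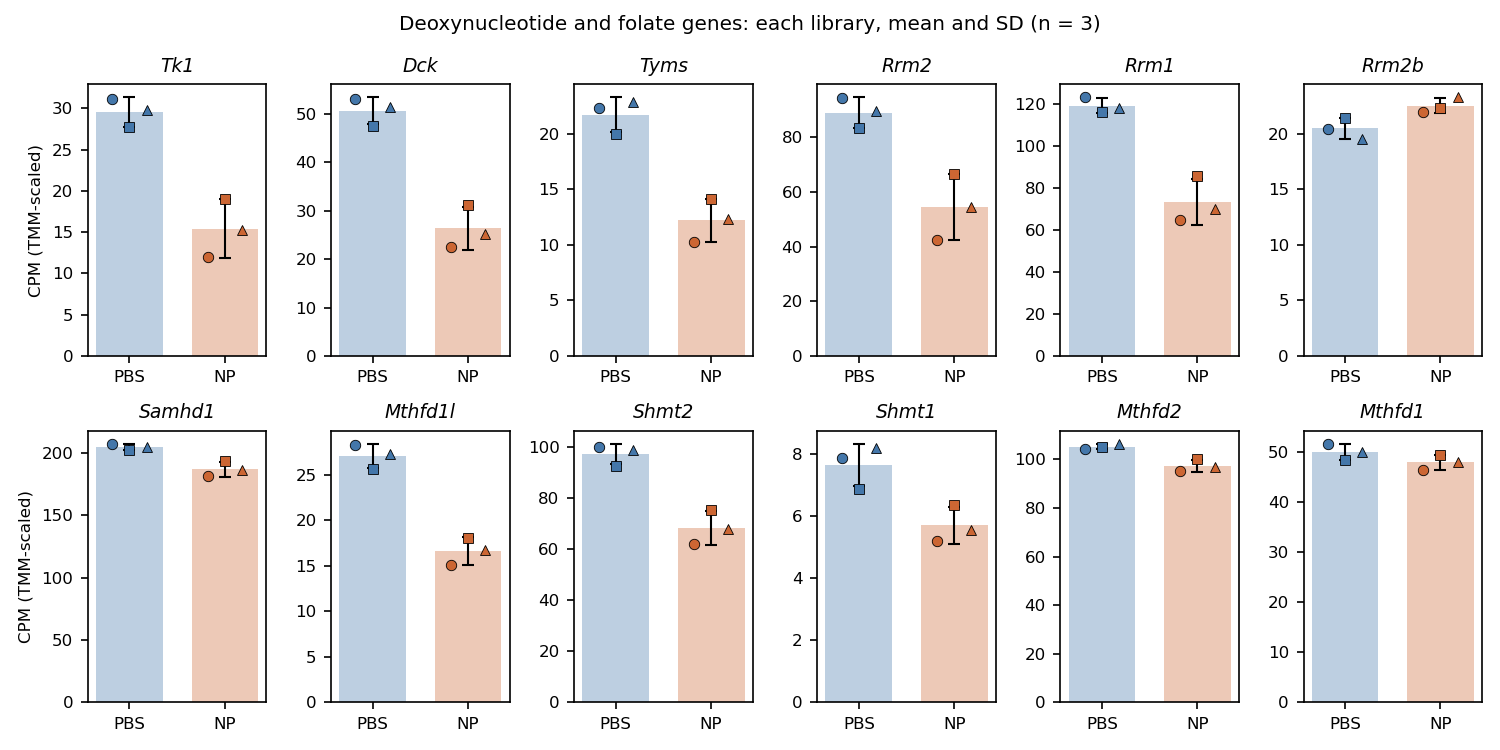
CPM of 7 deoxynucleotide and 5 folate genes by group, with bars for the mean, error bars for the SD over 3 libraries and points for single libraries (circles, squares and triangles for replicates 1, 2 and 3). Tk1, Dck, Tyms, Rrm2, Rrm1, Mthfd1l and Shmt2 show gaps between the groups, while Rrm2b, Samhd1, Mthfd2 and Mthfd1 differ by little.

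The 5 genes of de novo pyrimidine synthesis showed little change. Cad, the trifunctional enzyme of the first 3 steps, had 51.4, 50.4 and 53.7 CPM with PBS and 53.5, 55.6 and 55.8 CPM with NP, and the groups overlapped. Its log2 fold change was 0.08 (95% interval 0.00 to 0.17, limma voom adjusted p = 0.0978). Dhodh, the mitochondrial dihydroorotate dehydrogenase, had the lowest log2 fold change of the role, with 11.6, 11.1 and 12.2 CPM with PBS and 9.44, 11.2 and 10.2 CPM with NP. NP 2 lay within the PBS range for Dhodh, whose log2 fold change was -0.19 (95% interval -0.36 to -0.02, limma voom adjusted p = 0.0685), and without NP 2 the gene was called. Umps, which completes UMP, had a log2 fold change of -0.01 (95% interval -0.09 to 0.08, limma voom adjusted p = 0.909).

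CTP synthase, which aminates UTP to CTP, has 2 genes. Ctps had 17.3, 17.9 and 19.2 CPM with PBS and 19.0, 20.1 and 19.2 CPM with NP, with overlap and a log2 fold change of 0.10 (95% interval -0.02 to 0.22, limma voom adjusted p = 0.177). Ctps2 had 33.4, 33.6 and 34.4 CPM with PBS and 31.8, 31.0 and 31.8 CPM with NP, a fall of 0.10 on the log2 scale (limma voom adjusted p = 0.0474). The Ctps2 call was lost in 12 of the 16 other settings, including the loss of any one library (adjusted p from 0.0744 to 0.144). Of 11 other pyrimidine genes tested (of 13), Cmpk2, a mitochondrial UMP-CMP kinase known as an interferon-induced gene, fell from 8.25 ± 2.00 to 3.08 ± 0.448 CPM (log2 fold change -1.43, limma voom adjusted p = 0.000331). It was the only one that fell, and 4 rose. The largest of these rises were in Uprt, related to uracil phosphoribosyltransferases (0.23), and Cmpk1, the cytosolic UMP-CMP kinase (0.21).

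Purine synthesis starts from phosphoribosyl pyrophosphate, which the synthetases Prps1 and Prps2 make. Prps2 (chromosome X, 167346322 to 167382749, minus strand) had the lowest log2 fold change of the role, with 35.8, 34.8 and 34.2 CPM with PBS and 22.0, 27.4 and 25.9 CPM with NP. The groups were well separated, and the change was -0.49 (SE 0.07, limma voom adjusted p = 0.000666). Prps1 had a log2 fold change of 0.05 (95% interval -0.06 to 0.15, limma voom adjusted p = 0.492). Per kilobase of exon, Prps1 stood at 11.8 ± 0.368 CPM with PBS and 12.1 ± 0.526 with NP, and Prps2 at 9.03 ± 0.206 and 6.48 ± 0.724 (SD, n = 3).

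Along the chain to IMP, Ppat, the amidophosphoribosyltransferase of the committed step, had 34.8, 33.7 and 34.8 CPM with PBS and 36.4, 36.8 and 35.7 CPM with NP. The NP libraries were all slightly above, but the log2 fold change of 0.08 was not called (95% interval -0.00 to 0.16, limma voom adjusted p = 0.117). Gart, a trifunctional enzyme of the next steps, rose by 0.16 on the log2 scale (62.5 ± 1.81 to 70.0 ± 2.54 CPM, limma voom adjusted p = 0.00878). Its call was lost against PBS 1 alone (adjusted p = 0.241). Paics, a bifunctional enzyme further along, fell by 0.26 (134 ± 3.34 to 112 ± 3.82 CPM, SD, n = 3, limma voom adjusted p = 0.000413). Pfas (0.03), Adsl (0.07) and the last enzyme of the chain, Atic (-0.09), were not called, with adjusted p from 0.0844 to 0.624 in limma voom.

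Paics and Ppat lie head to head on chromosome 5, at 76951307 to 76967509 on the plus strand and 76913249 to 76951578 on the minus strand, and their annotated ends overlap by 272 bases. The counts of Paics over Ppat were 3.94, 3.88 and 3.89 with PBS and 3.02, 3.16 and 3.08 with NP, a ratio examined after the values of both genes were seen. The neighbours therefore did not move in parallel, and the NP ratios lay close to each other. No source used here gives the strand setting of the counting, and reads from the shared stretch cannot be assigned.

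After IMP the pathway branches. IMP dehydrogenase leads to GMP and has 2 isozymes, of which Impdh2 is usually raised in dividing cells. Impdh1 (chromosome 6, 29200434 to 29216364, minus strand) had 73.9, 74.1 and 78.3 CPM with PBS and 92.5, 84.6 and 86.0 CPM with NP. Impdh2 (chromosome 9, 108560286 to 108565584, plus strand) had 74.7, 70.5 and 74.2 CPM with PBS and 54.2, 61.4 and 56.4 CPM with NP. The isozymes moved in opposite directions without overlap: Impdh1 rose by 0.22 on the log2 scale (SE 0.04, limma voom adjusted p = 0.00302) and Impdh2 fell by 0.35 (SE 0.05, adjusted p = 0.000414). Per kilobase of exon they were near each other with PBS, at 22.9 ± 0.759 CPM for Impdh1 and 23.8 ± 0.747 for Impdh2, whereas with NP Impdh1 stood at 26.6 ± 1.27 and Impdh2 at 18.6 ± 1.19 (SD, n = 3). A short part of Impdh2's last exon overlaps Ndufaf3 on the other strand, which had 470 to 718 counts per library.

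Gmps, which turns XMP into GMP, rose by 0.12 on the log2 scale (74.1 ± 1.86 to 80.4 ± 0.233 CPM, limma voom adjusted p = 0.0135), a call lost with library totals alone (adjusted p = 0.0612) and against PBS 1 alone (adjusted p = 0.146). Adss, the first enzyme of the branch to AMP, had a log2 fold change of -0.09 (limma voom adjusted p = 0.137). Of 22 other purine genes tested (of 24), 9 were lower and 4 higher, with a median of -0.09. The largest falls were in Gda, the guanine deaminase of purine breakdown (186 ± 2.16 to 83.0 ± 6.67 CPM, log2 fold change -1.17), and Xdh, which oxidizes hypoxanthine and xanthine to uric acid (297 ± 7.72 to 207 ± 1.76 CPM, -0.52). The largest rises were in Ak4, a mitochondrial adenylate kinase (0.83, at 1.95 CPM with PBS), and Adssl1, an isozyme of Adss known from muscle (60.0 ± 3.13 to 87.2 ± 3.94 CPM, 0.54).

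Salvage of purine bases is carried out by Hprt, which returns hypoxanthine and guanine to IMP and GMP, and Aprt, which returns adenine to AMP. Hprt (chromosome X, 52988137 to 53021659, plus strand) had 80.5, 82.8 and 77.8 CPM with PBS and 58.8, 64.8 and 61.1 CPM with NP. Aprt (chromosome 8, 122574635 to 122576909, minus strand) had 92.6, 87.6 and 93.9 CPM with PBS and 108, 110 and 108 CPM with NP. Neither gene overlapped between the groups, and the directions were opposite: Hprt fell by 0.38 on the log2 scale (SE 0.04, limma voom adjusted p = 0.000136) and Aprt rose by 0.25 (SE 0.03, adjusted p = 0.000409). The counts of Aprt over Hprt, a ratio examined after the values were seen, were 1.15, 1.06 and 1.21 with PBS and 1.84, 1.69 and 1.77 with NP. Aprt had the largest rise of the 35 genes. Hprt is often used as a reference gene for quantitative PCR, and here it differed between the groups by a factor of 1.31.

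Nme1 and Nme2 are the main nucleoside diphosphate kinases, which convert diphosphates into triphosphates. Nme1 had 41.0, 41.9 and 43.0 CPM with PBS and 42.2, 45.4 and 41.1 CPM with NP, and Nme2 had 205, 210 and 216 CPM with PBS and 215, 212 and 208 CPM with NP. Both overlapped between groups, with log2 fold changes of 0.03 (95% interval -0.07 to 0.13) and 0.01 (95% interval -0.06 to 0.08). RSEM, named in the submitters' processing notes, divides reads that fit several genes, and the annotated read-through gene Gm20390 (815 to 1240 counts per library) shares exons with both, so their levels carry that uncertainty. Nme2 had the highest level per kilobase of exon of the 35 genes (180 ± 4.63 CPM with PBS), and Dhodh the lowest (1.84 ± 0.0904). Such ranks depend on the annotated exon length: in CPM alone, Shmt1 (mean of 7.63 with PBS) stood below Dhodh (11.7).

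Folate one-carbon metabolism runs in the mitochondrion, where Shmt2, Mthfd2 and Mthfd1l turn serine into formate, and in the cytosol, where Mthfd1 takes up formate and Shmt1 exchanges serine and glycine. Mthfd1l, the mitochondrial formate-releasing enzyme (chromosome 10, 3973118 to 4167081, plus strand), had 28.27, 25.65 and 27.20 CPM with PBS and 15.04, 18.05 and 16.74 CPM with NP. Shmt2 (chromosome 10, 127517123 to 127522444, minus strand) had 100, 92.6 and 98.9 CPM with PBS and 62.0, 75.2 and 67.8 CPM with NP. In both genes the highest NP library was well below the lowest PBS library. Their log2 fold changes were -0.72 (SE 0.07, limma voom adjusted p = 6.46e-05) and -0.51 (SE 0.06, adjusted p = 0.000258).

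Mthfd2, the mitochondrial dehydrogenase and cyclohydrolase between them, had 104, 105 and 106 CPM with PBS and 95.32, 99.99 and 96.75 CPM with NP. The groups were apart but the fall was only 0.11 on the log2 scale (SE 0.03, limma voom adjusted p = 0.0164), and it was not called when PBS 1, PBS 3, NP 1 or NP 3 was left out (adjusted p from 0.0598 to 0.0859), against PBS 1 alone (adjusted p = 0.182) or with no low-count filter (adjusted p = 0.102). The 95% interval of its log2 fold change was -0.18 to -0.04, against -0.87 to -0.56 for Mthfd1l and -0.66 to -0.37 for Shmt2, and the difference between these genes was not tested. Shmt1, the cytosolic isozyme of Shmt2, had 7.85, 6.87 and 8.18 CPM with PBS and 5.21, 6.35 and 5.54 CPM with NP, a log2 fold change of -0.44 (SE 0.10, limma voom adjusted p = 0.00609). The end of Shmt1 overlaps an exon of Smcr8 on the other strand, a gene with 7941 to 16402 counts per library, so part of its small count may belong to either gene. Mthfd1 had 51.69, 48.46 and 49.99 CPM with PBS and 46.50, 49.51 and 48.06 CPM with NP, which overlapped, with a log2 fold change of -0.06 (95% interval -0.15 to 0.03, limma voom adjusted p = 0.233). Summed over the 5 folate genes, the level was 279 to 292 CPM with PBS and 224 to 249 CPM with NP.

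Serine synthesis, which feeds this pathway, was lower in all 3 of its genes: Phgdh, the first enzyme, fell from 56.3 ± 2.62 to 40.0 ± 1.66 CPM (log2 fold change -0.49, limma voom adjusted p = 5.79e-05), Psat1, the aminotransferase that follows it, fell by 0.35, and Psph, the final phosphatase, by 0.21. Of 22 other folate and methionine genes tested (of 23), 7 were lower and 4 higher, with a median of -0.14. Among the lower genes was Folr2, a folate receptor found on M2-type macrophages (39.9 ± 1.62 to 25.4 ± 4.18 CPM, log2 fold change -0.67). The largest rises were in Slc46a1, the proton-coupled folate transporter (5.65 ± 0.459 to 8.08 ± 0.543 CPM, 0.53), and Mtrr, which keeps methionine synthase active (0.28). Over all 72 other genes of these pathways, 67 were tested, 22 were lower and 12 higher, with a median of -0.05. Among all genes tested, 21.4% were called lower and 19.8% higher.

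The ratio of 2 genes within a library does not depend on how libraries are scaled, and 8 such ratios were compared by a two-sided exact permutation test, in which 3 libraries against 3 cannot give p below 0.1 (p adjusted over the 8 ratios). Rrm2 over Rrm2b counts stood at 4.61, 3.88 and 4.58 with PBS and at 1.93, 2.97 and 2.34 with NP, a mean log2 difference of -0.87. Impdh2 over Impdh1 was 1.01, 0.952 and 0.948 with PBS and 0.587, 0.726 and 0.656 with NP, a difference of -0.57. Neither ratio overlapped between the groups. The difference was 0.53 for Prps1 over Prps2, -0.48 for Tyms over Dut and 0.20 for Ctps over Ctps2, also without overlap, and for these 5 ratios the exact p was 0.1 and the adjusted p 0.16. Shmt2 over Shmt1 (-0.09) and Mthfd2 over Mthfd1 (-0.05) overlapped (exact p = 0.2 each, adjusted 0.229), as did Nme1 over Nme2 (0.02, exact p = 1). None of the 8 ratios passed the threshold, which this design could not reach.

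**Figure D3:**
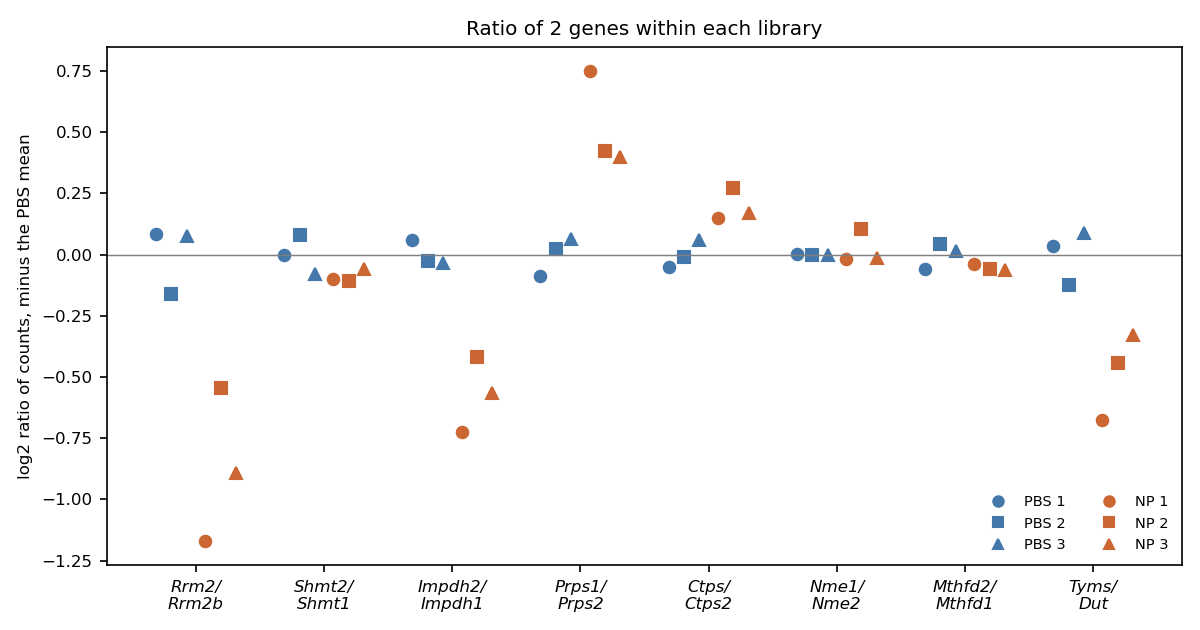
Log2 ratio of the counts of 2 genes in each library, minus the mean of the 3 PBS libraries (points are single libraries, circles, squares and triangles mark replicates 1, 2 and 3). The NP libraries lie apart from the PBS libraries for Rrm2/Rrm2b, Impdh2/Impdh1, Prps1/Prps2, Ctps/Ctps2 and Tyms/Dut and overlap them for Shmt2/Shmt1, Nme1/Nme2 and Mthfd2/Mthfd1.

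Genes of DNA replication, which consumes deoxynucleotides in S phase, and of mitosis, which follows it, were measured beside them. Of 17 replication genes, 16 fell and none rose, with a median log2 fold change of -0.49. The largest falls were in Pole, the catalytic subunit of a leading-strand polymerase (-0.81), and Lig1, the replicative ligase (-0.74), while Pcna, the sliding clamp, was not called (-0.06, limma voom adjusted p = 0.229). All 14 mitosis genes fell, with a median of -1.16. The largest of these falls were in Ccnb2, a B-type cyclin (38.8 ± 3.65 to 13.8 ± 3.79 CPM, -1.53), and Nusap1, a spindle protein (-1.38). The 9 deoxynucleotide genes ran from -0.98 (Tk1) to 0.14 (Rrm2b), with a median of -0.71. Tk1, Dck, Tyms, Rrm1 and Rrm2, picked as the largest falls of that role, lay between -0.98 and -0.71. The difference between these lists was not tested.

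Of 12 transcription factors tested (of 13) that are known to act on these pathways, 6 were lower and 1 higher. E2f7, a repressor of the E2F family that peaks in S phase, fell by 1.03 on the log2 scale, and Foxm1, an activator of G2 and mitosis genes, fell by 1.02. Atf4, which drives serine and mitochondrial folate genes during amino acid stress, rose by 0.17 (380 ± 8.24 to 427 ± 24.5 CPM, limma voom adjusted p = 0.0113). Of 9 stress genes known as ATF4 targets, 4 were higher, the most in Ddit3, a stress transcription factor (0.56), and Slc3a2, an amino acid transporter subunit (0.49). In the same list 3 were lower, the most in Chac1, which degrades glutathione (-0.71), and Asns, the asparagine synthetase (-0.21). Among all genes tested, 21.4% were called lower and 19.8% higher. Whether the number of cycling cells or the activity of these factors bears on the enzyme genes was not tested.

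**Figure D4:**
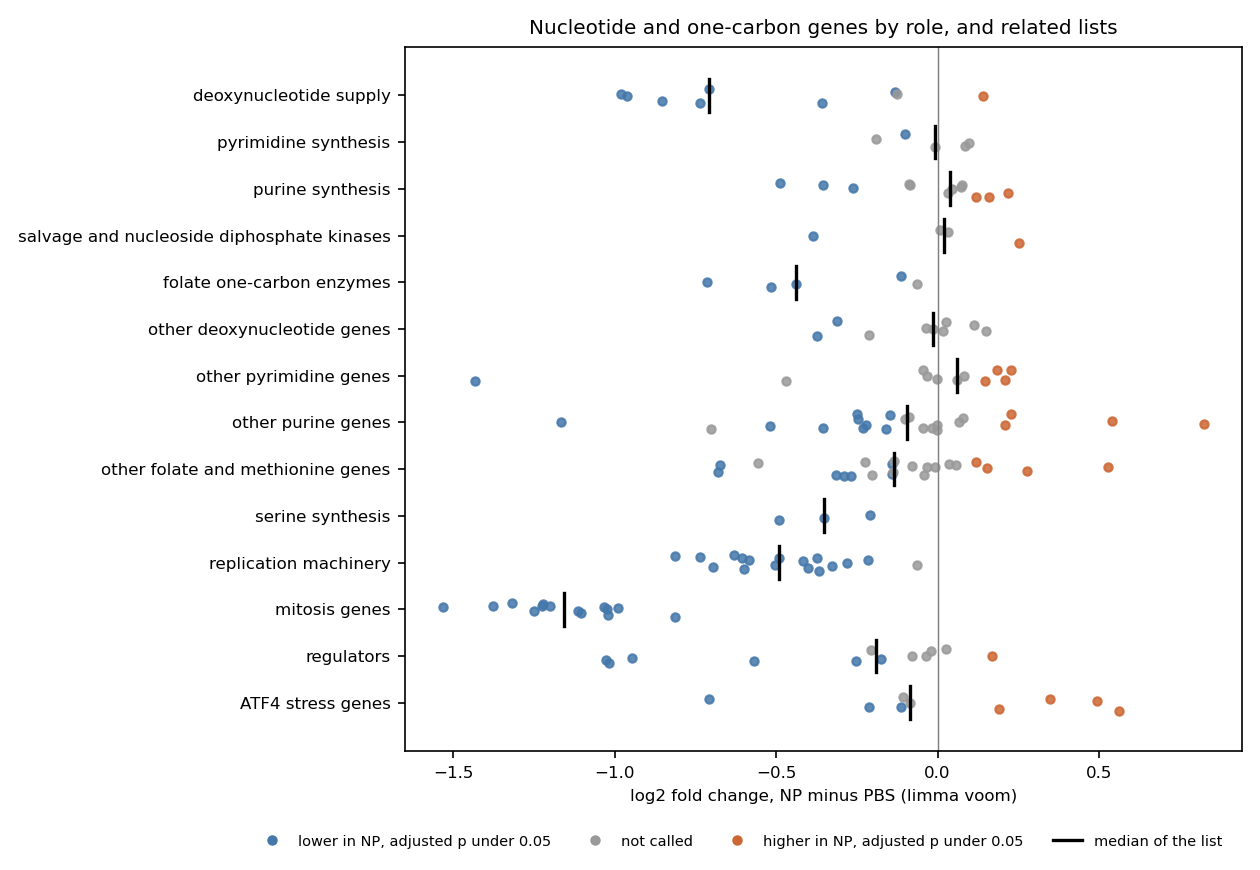
Log2 fold change (NP minus PBS, limma voom) of every tested gene in the 5 roles and in the related lists, one point per gene, coloured by call, with a bar at the median of each list. The deoxynucleotide and folate roles have medians of -0.71 and -0.44, and replication and mitosis genes -0.49 and -1.16. The medians of the pyrimidine, purine and salvage roles are -0.01, 0.04 and 0.02. The purine and salvage roles hold genes called in both directions.

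The falls were not equal among the NP libraries. In 15 of the 16 lower genes (93.8%), including all 7 deoxynucleotide and all 4 folate genes, NP 2 had the highest level of the NP libraries, while this was so in 2153 of the 3092 genes called lower overall (69.6%). The exception was Ctps2. Without NP 2, 17 genes were lower and 4 higher, and without both libraries numbered 2, 16 were lower and 5 higher.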

How the data were processed

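Gene-level expected counts of 6 libraries (3 NP, 3 PBS) came from 1 table that the authors deposited, unscaled. STAR 2.7.8a, RSEM 1.3.3, cutadapt 2.3 and the build GRCm38 are listed in the submitters' processing notes, with no role given. No source used here gives the annotation release or strand setting. The values are whole numbers, and 4 reporter rows with 0 counts were left out. A count-model test was planned as the main test, but the unit check could not read the quoted, space-separated columns, so edgeR and DESeq2 were not run. Counts were instead analysed with limma 3.58.1 (voom) in R 4.3.3: TMM factors of 0.979 to 1.02, a filter of at least 0.171 CPM in 3 libraries (10 counts at the median library total) and 15 counts in all, no covariate, 4 residual degrees of freedom, and Benjamini-Hochberg adjustment at 0.05. The procedure was also run on simulated counts with the same dispersion for every gene and both groups. That run does not show how the calls behave at the spread of these libraries. A limit of 3 counts was 0.0432 to 0.0715 CPM per library on library totals alone, for counting error only.

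Levels per kilobase used union exon lengths of GENCODE M21 on GRCm38, which matched all 35 genes. Promoters came from RefSeq (GRCm38.p6). The text gives every one of the 35 genes, with values per library for the extremes of each role and for preset enzymes, and up to 2 lowest and 2 highest called genes of each related list; exceptions are stated, and 1 gene of a related list is not reported here. The genes and lists were chosen with earlier results of these data known. Alternatives were other scalings, filters and tests, a replicate block, and left-out libraries. The main test was planned without pairs, since the labels give no batch. Deviations from the group means correlated at -0.11, -0.19 and -0.19 between same-numbered libraries. Deviations within groups of 3 depend on each other, so these values cannot exclude pairing.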

Additional observations from a re-analysis of the deposited data

How the results depend on the processing

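Of 560 values of the 35 genes under the 16 alternatives, 505 kept their direction and side of the threshold, 34 lost a call, 11 gained one and 10 changed sign. The genes called higher numbered 3 with library totals alone and 2 against PBS 1 alone, where 2972 genes were called in all; that setting has fewer samples. With the replicate block, 5022 genes, 15 lower and 4 higher members were called (Ctps2 and Rrm2b lost); with single libraries left out, 4077 to 6466 genes, 13 to 17 lower and 4 to 5 higher members were. Sign changes concerned uncalled genes near 0: Pfas (-0.0021), Nme1 (-0.0027) and Nme2 (-0.026) with library totals alone, Umps (0.014) with no filter and from -0.025 to 0.029 with single libraries left out, Nme2 (-0.0014) with sample weights, and Pfas (-0.015) and Nme1 (-0.0091) without both libraries numbered 2. The ratio of Nme1 to Nme2 ran from -0.017 to 0.044 with single libraries left out; the cause was not tested. Scaling moved the median of all genes by less than 0.04, to -0.0377 with library totals alone. edgeR and DESeq2 were not run. Shmt1, at 5.21 to 8.18 CPM, and Dhodh rest on the smallest counts of the 35 genes.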
